A study of Mus musculus with 20 samples.

Results

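Mitochondria make most of a cell's ATP by oxidative phosphorylation, and the genes of that machinery lie in 2 genomes. The genes described here are 54 of the 42374 genes with a transcript in the deposited tables. They comprise 41 nuclear genes for subunits of complexes I to V and cytochrome c, and the 13 protein-coding genes of mitochondrial DNA, written with the prefix mt-. They were listed by name, with no measured value in the rule, and all 54 passed the filter on low counts. Of the nuclear genes, 19 were listed under complex I, 4 under complex II, 6 under complex III, 6 under complex IV and 5 under complex V, and 1 is cytochrome c. Ndufa4 is counted with complex I after its name throughout, although it has since been placed in complex IV. Of the mitochondrial genes, 7 belong to complex I, 1 to complex III, 3 to complex IV and 2 to complex V.

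Complexes I to IV pass electrons from fuels to oxygen. All of them but complex II also pump protons across the inner mitochondrial membrane. Complex V, the ATP synthase, uses the proton gradient to make ATP. The nuclear genes are read from many promoters across the chromosomes. The mitochondrial genes are read as long joint transcripts from both strands of a small circular genome and are then cut apart. The 2 sets are thus read from different promoters. Complex II alone has no subunit from mitochondrial DNA. Endothelial cells, which line blood vessels, are known for drawing much of their ATP from glycolysis rather than from respiration.

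RNA was sequenced from endothelial cells sorted as CD31+CD45- from mouse skeletal muscle, either the oxidative soleus or the glycolytic extensor digitorum longus. The mice, on C57BL/6N, were wild type or had lost Atf4 in their endothelium (Atf4 ECKO). ATF4 is a transcription factor that acts in the response to cellular stress. The 4 groups, with 5 libraries each, were glycolytic wild type, oxidative wild type, glycolytic Atf4 ECKO and oxidative Atf4 ECKO. All mice, wild type included, received 1 mg of tamoxifen per day by intraperitoneal injection over 5 days at 8 to 10 weeks of age, followed by a washout of at least 7 days. The wild type animals were littermates that carried no Cre. The Cre driver and the number of animals behind a library are not given in the labels, so the p-values measure the spread between libraries, which may be technical.

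Several facts of the libraries touch the results below. Atf4 itself had log2 values of -6.06 (oxidative) and -5.16 (glycolytic) in ECKO against wild type, in the direction of the labels. Library totals ranged from 7996113 to 21673999 matched counts. The endothelial markers Pecam1 and Cdh5 were at 1395 to 2005 CPM (counts scaled to a library of 1000000, with TMM factors) and 717 to 1091 CPM, whereas Ptprc, which encodes CD45, reached at most 3.45 CPM. The 10 endothelial markers summed to 10223 to 10584 CPM in glycolytic and 9123 to 9655 CPM in oxidative wild type. In ECKO they summed to 8810 to 8934 and 9921 to 10152 CPM. Of the 10, 1 was called higher and 5 lower between wild type muscles. In oxidative ECKO 4 were higher and 1 lower, and in glycolytic ECKO 0 and 6. The part of these in the results was not tested. Sex differed between the genotypes. Xist, the transcript of the inactive X chromosome, was at most 0.274 CPM in wild type and between 59.2 and 66.2 CPM in glycolytic ECKO libraries. Oxidative ECKO libraries 4 and 5, with Xist at 81.4 and 76 CPM, resembled these, whereas libraries 1, 2 and 3 held Xist together with Y-linked RNA at 28.2 to 57.5% of that in wild type. The comparison of muscles in wild type is therefore matched for sex, while genotype and sex cannot be told apart in glycolytic muscle. In oxidative muscle they are not separated either, since every ECKO library held Xist, at 17.9 CPM or more. The 2 ECKO groups also differ from each other in Y-linked RNA.

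2 nuclear promoters and 1 stretch of mitochondrial DNA show how differently the genes are laid out. The table of RefSeq promoters (GRCm38.p6, 250 bases before to 50 after the start) held 30 of the 41 nuclear genes. The first is that of Cycs, one of 2 nuclear genes that rose in oxidative wild type muscle (chr6:50566520-50566819, minus strand), with the cAMP-response motif TGACGTCA in capitals, which begins 169 bases before the start. The second is that of Ndufa8, which had the largest fall in the same comparison (chr2:36049289-36049588, minus strand), with an NRF1 motif in capitals that begins 30 bases before the start. NRF1 is a known activator of nuclear respiratory chain genes.
Cycs: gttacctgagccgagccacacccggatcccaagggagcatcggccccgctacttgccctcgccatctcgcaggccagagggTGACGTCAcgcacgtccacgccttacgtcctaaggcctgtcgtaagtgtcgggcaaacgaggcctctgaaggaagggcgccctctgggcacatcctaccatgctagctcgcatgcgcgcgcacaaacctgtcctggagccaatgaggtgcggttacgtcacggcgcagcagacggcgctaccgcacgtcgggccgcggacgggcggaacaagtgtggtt
Ndufa8: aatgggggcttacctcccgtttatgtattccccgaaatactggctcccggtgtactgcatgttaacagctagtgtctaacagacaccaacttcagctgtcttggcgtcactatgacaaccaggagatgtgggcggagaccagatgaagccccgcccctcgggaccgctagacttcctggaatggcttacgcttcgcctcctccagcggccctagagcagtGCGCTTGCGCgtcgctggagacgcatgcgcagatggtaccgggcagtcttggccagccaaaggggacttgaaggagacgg

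Motifs were searched as exact letters on both strands. The NRF1 motif was in 7 of the 30 promoters (23.3%), those of Ndufa5, Ndufa8, Sdha, Sdhd, Uqcrc1, Atp5c1 and Atp5o, and in 5.19% of the 27025 promoters of the table. The GABP motif CCGGAAG was in 5 (16.7%) against 9.93%, and the cAMP-response motif TGACGTCA in 3 (10%), those of Ndufa10, Uqcrfs1 and Cycs, against 2.03%. The motif TGATGCAA, bound by ATF4 with its partners, was in 0 of 30 against 1.03%. Uqcrq had no promoter among the 30, so its promoter was not searched for any motif. None of the 4 motifs lies within another, and a match describes letters in this window and no binding.

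In the mitochondrial genome neighbouring reading frames share bases. mt-Atp8 and mt-Atp6, both for complex V, overlap by 43 bases on the plus strand (chrM:7919-7977 with flanks, GRCm38, from the GENCODE transcripts), shown in capitals because reads from this stretch could be assigned to either gene.
mt-Atp8 and mt-Atp6: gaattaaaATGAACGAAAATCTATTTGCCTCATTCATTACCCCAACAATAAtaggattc
mt-Nd4l and mt-Nd4 share 7 bases, mt-Atp6 and mt-Co3 share 1, and mt-Nd5 and mt-Nd6 share 14 on opposite strands. mt-Nd6 is the only one of the 13 on the minus strand. Whether the authors' counting used strand is stated in no source used here.

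Per length, the median mitochondrial gene was far above the median nuclear one. In deposited TPM (a share of transcripts that corrects for their length), the level averaged over all libraries ran from 1086 (mt-Nd6) to 17388 (mt-Atp6) with a median of 7630 for the 13, and from 36.1 (Ndufs1) to 1021 (Cox4i1) with a median of 232 for the 41. In both glycolytic groups the ranges crossed: Cox4i1 (1131 TPM in wild type and 1054 TPM in ECKO) stood above mt-Nd6 (688 and 666 TPM) and mt-Nd5 (964 and 1002 TPM). Averaged over all libraries, the mitochondrial order by TPM was mt-Atp6, mt-Co1 (15312), mt-Co3 (13238), mt-Co2 (11754), mt-Nd1 (11403), mt-Atp8 (8079), mt-Cytb (7630), mt-Nd4l (7260), mt-Nd4 (3561), mt-Nd3 (2924), mt-Nd2 (1775), mt-Nd5 (1532) and mt-Nd6. The order changed between groups, with mt-Nd1 (8916 TPM) above mt-Co2 (8505 TPM) in glycolytic wild type and mt-Cytb (8647 TPM) above mt-Atp8 (8118 TPM) in oxidative ECKO. In oxidative ECKO libraries several neighbours in this order, mt-Atp6 (19263 TPM) and mt-Co1 (17471 TPM) among them, differed by less than their SD (2445 and 2704).

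The 2 genomes parted between the muscles. Summed over the 13 mitochondrial genes, the level was 42416, 43535, 40838, 43296 and 39147 CPM in the glycolytic and 115958, 107931, 94524, 102966 and 87263 CPM in the oxidative wild type libraries. Summed over the 41 nuclear genes, it was 7084, 7184, 7230, 7050 and 7234 CPM in the glycolytic and 6853, 6919, 6940, 6875 and 6803 CPM in the oxidative wild type libraries. Every oxidative library was thus higher than every glycolytic one for the mitochondrial sum, and lower for the nuclear sum. The means in CPM differed 2.43-fold for the mitochondrial and by a factor of 0.961 for the nuclear sum. The size of the difference depended on the scaling. In deposited TPM the mitochondrial sum had means of 74689 in glycolytic and 149899 in oxidative wild type, and the nuclear sum 13473 and 11051. As a mean share of all counts, the nuclear genes took 0.72 and 0.632%. In bulk samples, more cells of a type and more RNA per cell cannot be told apart.

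**Figure D1:**
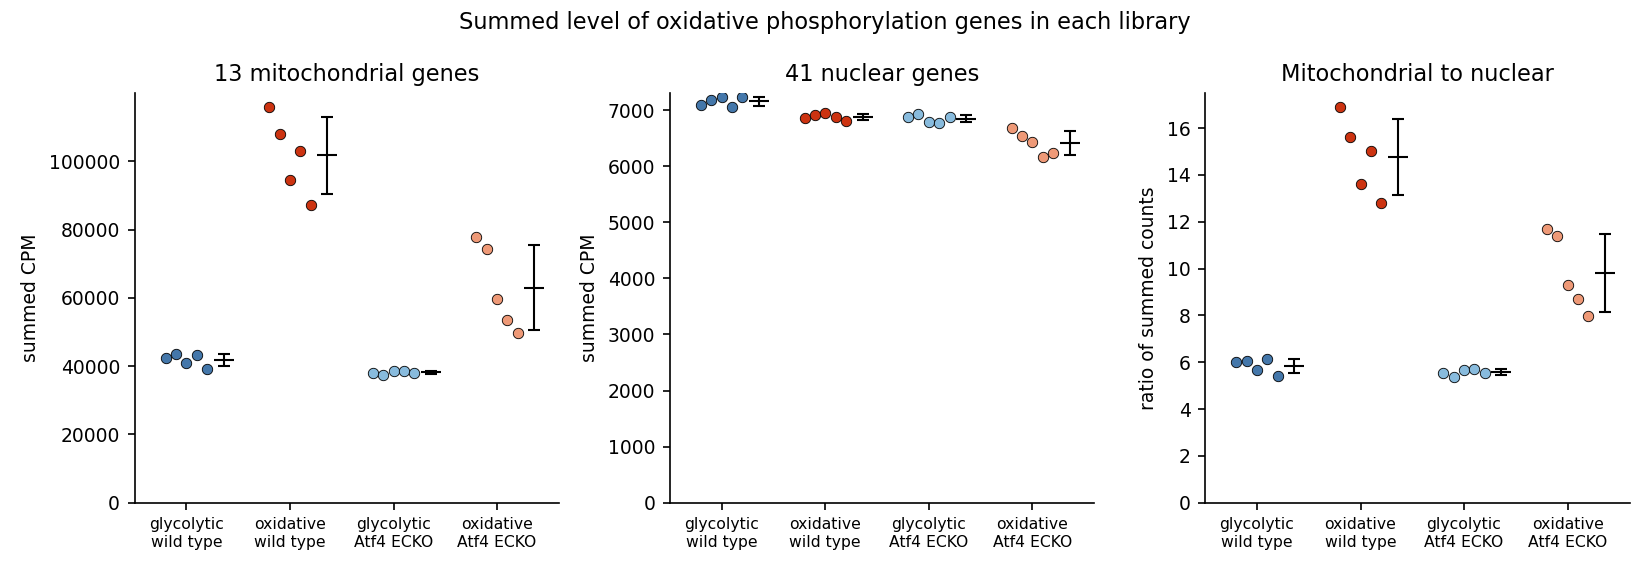
Summed CPM of the 13 mitochondrial genes (left) and of the 41 nuclear genes (middle), and the ratio of their counts (right), in each of the 5 libraries of 4 groups (points), with mean and SD (black bars). The mitochondrial sum reaches at least 87263 CPM in oxidative and at most 43535 CPM in glycolytic wild type libraries, whereas the nuclear sum stays between 6164 and 7234 CPM in all 20.

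Counts of the 13 mitochondrial genes were 5.85 ± 0.309 times (SD, n = 5) those of the 41 nuclear genes in glycolytic and 14.8 ± 1.62 times in oxidative wild type libraries. In Atf4 ECKO the ratio was 5.57 ± 0.138 in glycolytic and 9.8 ± 1.63 in oxidative libraries. As a share of all counts, the mitochondrial genes took 3.9 to 4.44% in glycolytic wild type, 8.23 to 10.3% in oxidative wild type, 3.94 to 4.14% in glycolytic ECKO and 5.19 to 7.83% in oxidative ECKO. The nuclear genes took 0.608 to 0.732% in every library. The ratio thus ran from 5.38 to 6.14 in the glycolytic libraries of both genotypes, was highest in oxidative wild type (12.8 to 16.9) and lay between them in oxidative ECKO (7.98 to 11.7), with no overlap between the muscles in either genotype.

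The first comparison sets the wild type endothelium of one muscle against that of the other. All 13 mitochondrial genes rose, by 1.09 to 1.59 on the log2 scale with a median of 1.33 (edgeR quasi-likelihood test, Benjamini-Hochberg adjusted p below 0.05 as the call). Of the 41 nuclear genes 2 rose, 15 fell and 24 did not pass the test, with a median of -0.07. Over all 13971 genes tested, 16.4% were called higher and 15.9% lower, with a median of 0. The largest nuclear rise, 0.58, lay below the smallest mitochondrial one. Libraries of the 2 groups did not overlap for 13 of 13 mitochondrial genes, and among nuclear genes for 2 that were higher and 11 that were lower, where 12.1% of all genes were apart and higher and 11% apart and lower.

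**Figure D2:**
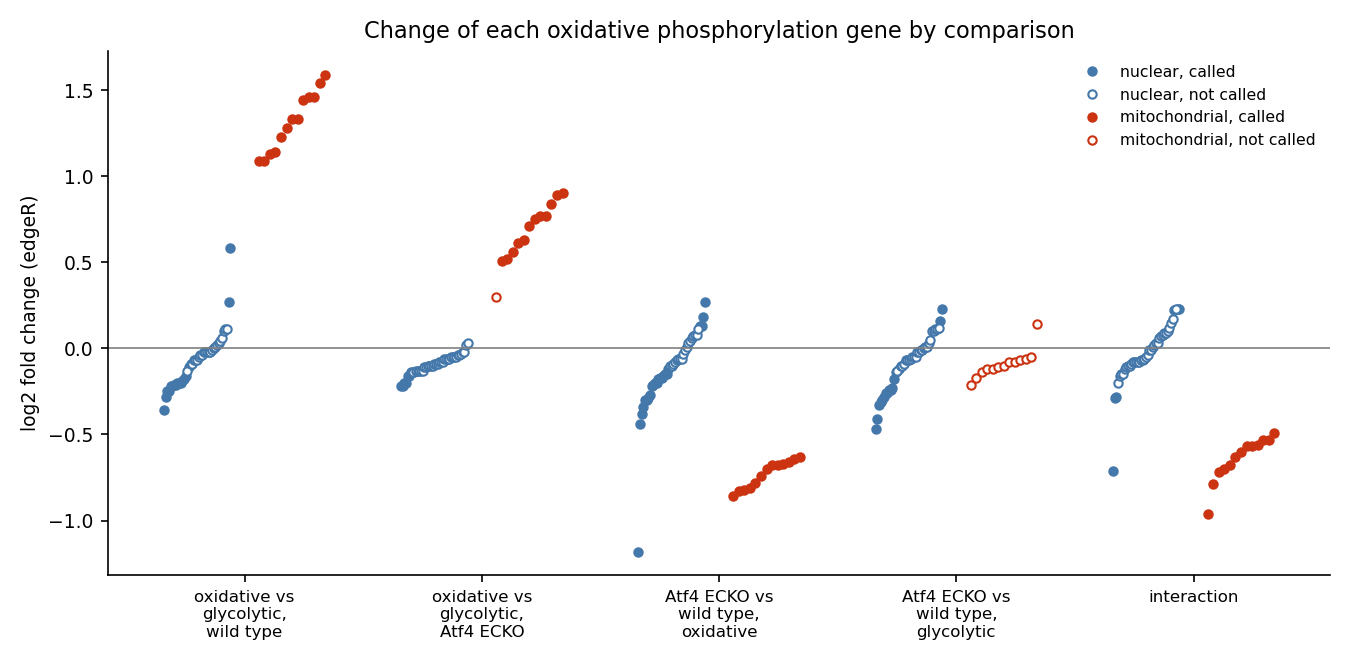
Log2 fold change of each nuclear (blue) and mitochondrial (red) gene in the 5 comparisons, with filled points for genes called at an adjusted p below 0.05 and open points for the rest, ordered by value within each set. In wild type the mitochondrial values (1.09 to 1.59) lie above the highest nuclear value (0.58), and in glycolytic muscle no mitochondrial gene was called between genotypes.

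Among the mitochondrial genes of complex I, which takes electrons from NADH, mt-Nd6 had the largest rise. It stood at 153, 192, 171, 183 and 181 CPM in the glycolytic and at 609, 525, 533, 540 and 448 CPM in the oxidative wild type libraries. All oxidative libraries were above all glycolytic ones, and the fitted rise was 1.59 ± 0.12 (log2, SE, adjusted p = 8.7e-11). mt-Nd3 and mt-Atp8 had the smallest rises, both 1.09. mt-Nd3 was at 335, 339, 310, 339 and 327 CPM in the glycolytic and at 818, 750, 663, 695 and 582 CPM in the oxidative wild type libraries (SE 0.084, adjusted p = 8.1e-11). Here too the groups were apart.

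mt-Cytb, the only mitochondrial gene of complex III, rose by 1.33 ± 0.088 (log2, SE, adjusted p = 4.7e-12), and mt-Co1, mt-Co2 and mt-Co3, which encode the core of cytochrome c oxidase, by 1.33, 1.23 and 1.28. The mitochondrial ribosomal RNAs, which lie on the same DNA, were also higher. The wild type mean of mt-Rnr1 was 774 ± 35.2 CPM (SD, n = 5) for the glycolytic muscle and 1924 ± 298 CPM for the oxidative one, and mt-Rnr2 was 16384 ± 715 against 35609 ± 3959 CPM. Their log2 differences were 1.31 and 1.12.

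The make-up of the mitochondrial counts moved less than their sum. mt-Co1 was 29.4 ± 0.357% of the counts of the 13 genes (SD, n = 5) in glycolytic and 30.5 ± 0.459% in oxidative wild type libraries. mt-Nd1 was 13.9 ± 0.588% and 12.5 ± 0.116%, mt-Nd5 3.02 ± 0.0936% and 3.6 ± 0.0328%, and mt-Nd6 0.421 ± 0.0383% and 0.523 ± 0.028%. The share of mt-Atp6 was 12.9 ± 0.23% and 11.7 ± 0.221%. The shares of mt-Co1, mt-Nd5 and mt-Nd6 were thus larger in oxidative libraries and those of mt-Nd1 and mt-Atp6 smaller, by more than either SD, as a description without a test.

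**Figure D3:**
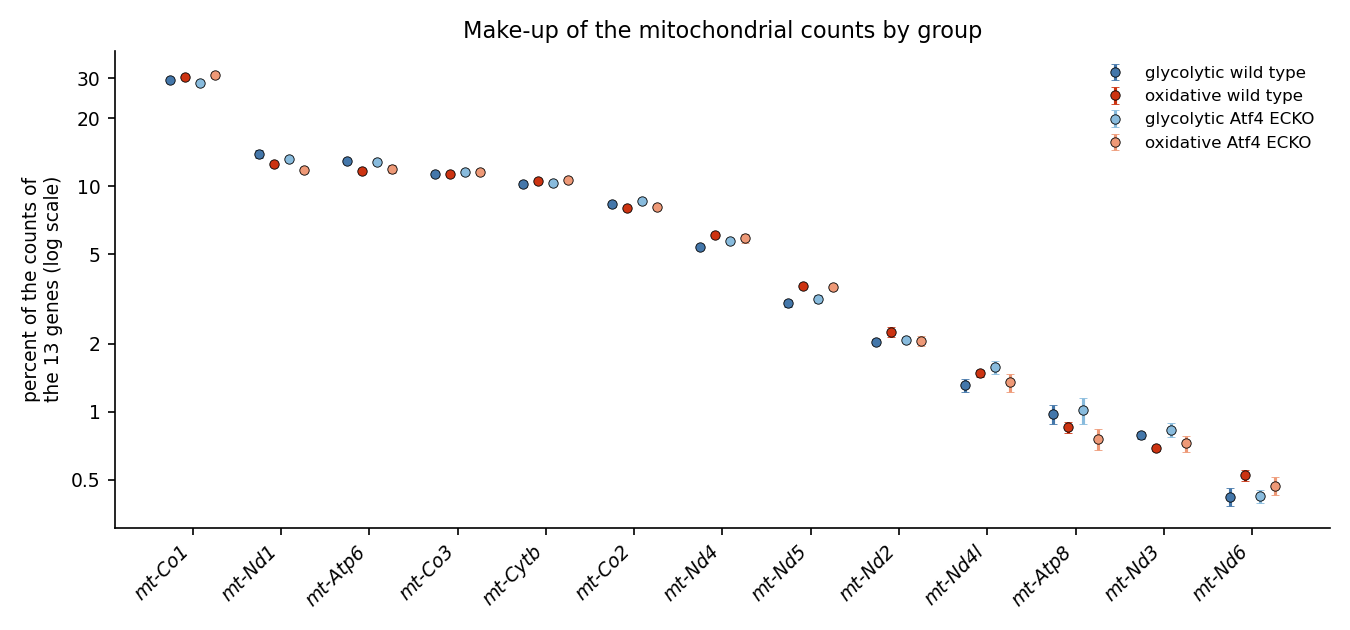
Share of each mitochondrial gene in the counts of the 13 (percent, log scale), as mean and SD over the 5 libraries of each group, ordered by the share in glycolytic wild type. The order from mt-Co1 (28.7 to 31.1%) to mt-Nd6 (0.421 to 0.523%) is shared by the groups apart from neighbours of like share.

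RNA of other cells moved in the same direction between the wild type muscles. The 15 leukocyte markers summed to 23.4 to 29.1 CPM in glycolytic and 373 to 474 CPM in oxidative libraries, and 14 of the 14 tested were called higher. The 21 muscle fibre markers summed to 121 to 131 against 188 to 320 CPM, the 10 fibroblast markers to 64.1 to 77.2 against 152 to 365 CPM, and the 5 red blood cell markers to 3782 to 4004 against 4393 to 6741 CPM. Of these lists 18 of 21, 9 of 10 and 5 of 5 were called higher. Those of pericytes and smooth muscle were lower in oxidative libraries, at 466 to 575 against 721 to 755 CPM. No marker of these lists was at 0 in all libraries. Subunit isoforms of striated muscle, Cox6a2, Cox7a1 and Cox8b, were called higher in 3 of 3 cases, with means of 0.75, 0.723 and 0.363 CPM in glycolytic and 4.62, 1.42 and 1.25 CPM in oxidative libraries. The part of these cells in the mitochondrial rise was not tested.

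Among nuclear complex I genes, 8 of 19 fell in oxidative wild type muscle and 11 were not called. Ndufa8, an accessory subunit, was at 153, 161, 153, 145 and 156 CPM in the glycolytic and at 123, 128, 110, 124 and 114 CPM in the oxidative libraries. The groups were apart and it fell by 0.36 on the log2 scale (SE 0.046, adjusted p = 7.8e-07). Ndufb10, also accessory, was at 93.9, 93.7, 96.7, 96.3 and 99.8 CPM against 80.6, 80.7, 79.5, 74.8 and 79.5 CPM, again without overlap, and fell by 0.28 (SE 0.041, adjusted p = 5e-06). Ndufa4, named for complex I and since placed in complex IV, and Ndufa5 both fell by 0.25, Ndufa10 fell by 0.21, Ndufs7, a core iron-sulphur subunit, fell by 0.19, Ndufa9 by 0.18 and Ndufb7 by 0.16.

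In complex II, succinate dehydrogenase, 3 of 4 genes fell: Sdha, the flavoprotein, by 0.20, and the membrane anchors Sdhc and Sdhd by 0.22 each. Sdhc was at 94.2, 97.7, 94.4, 96.4 and 98.6 CPM in the glycolytic and at 91.6, 77.1, 82.3, 78.7 and 84.1 CPM in the oxidative wild type libraries, without overlap (SE 0.048, adjusted p = 0.00081). Of complex V, the stalk subunits Atp5c1 and Atp5d fell by 0.20 each, and Atp5a1, Atp5b and Atp5o did not pass the test, with values of -0.04, -0.02 and -0.07. Of complex IV, Cox6c fell by 0.21 and Cox4i1 by 0.11, and the other 4 were not called. The Cox4i1 call was lost without any of 11 libraries in turn.

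The 2 nuclear genes that rose, Uqcrq and Cycs, act next to each other in the chain. Uqcrq encodes a small subunit of complex III (chr11:53427922-53430831, minus strand). It was at 140, 151, 148, 144 and 141 CPM in the glycolytic and at 216, 213, 226, 210 and 221 CPM in the oxidative wild type libraries. The groups lay far apart, and the rise was 0.58 ± 0.043 (log2, SE, adjusted p = 4e-11). Its 2 leading transcripts moved alike, from means of 79.6 to 120 CPM and from 51.2 to 70.9 CPM.

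Cycs encodes cytochrome c, the carrier between complexes III and IV. It was at 115, 99.1, 108, 100 and 103 CPM in the glycolytic and at 120, 130, 128, 131 and 124 CPM in the oxidative wild type libraries, without overlap, and rose by 0.27 ± 0.06 (log2, SE, adjusted p = 0.00092). Its counts are uncertain, because the near-identical copy Gm10053 (99.9% over 946 bases) holds 112% as many counts. With the counts of both added, an alternative chosen after seeing the data, the rise was 0.35 ± 0.045 (adjusted p = 8.9e-07). Within complex III, Uqcrc2 and Cyc1 had the smallest nuclear differences. Uqcrc2 was at 134, 145, 148, 141 and 168 CPM against 150, 148, 146, 150 and 144 CPM (log2 0 ± 0.054). Cyc1 was at 151, 140, 143, 130 and 136 CPM against 130, 142, 147, 139 and 146 CPM (log2 0.01 ± 0.063). Both pairs of groups overlapped.

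The same comparison in Atf4 ECKO gave a smaller mitochondrial difference. Here 12 of 13 mitochondrial genes were called higher in oxidative muscle, with a median of 0.71 (range 0.30 to 0.90), and mt-Atp8 was not (0.30 ± 0.12, adjusted p = 0.081). Of the 41 nuclear genes 0 were called higher and 8 lower, with a median of -0.09. Over all genes 8.31% were called higher and 10.1% lower. Groups were apart for 11 mitochondrial genes, all but mt-Nd4l and mt-Atp8, against 5.66% of all genes apart and higher, and for 5 nuclear genes against 7.59% apart and lower. For the 0 nuclear genes called higher, 0 had an unadjusted p under 0.05, and DESeq2 and limma-voom called 0 as well. Cycs was not called (-0.02), but with Gm10053 added it was called lower, at -0.20 ± 0.045 (adjusted p = 0.0028).

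Markers of other cells and of sex also differed between the ECKO muscles. Leukocyte markers were at 17 to 18 CPM in glycolytic and 44.5 to 101 CPM in oxidative ECKO libraries, with 11 of 14 tested called higher. Muscle fibre markers were at 222 to 231 against 294 to 411 CPM (14 of 21 higher and 1 lower), and those of red blood cells at 2264 to 2487 against 2502 to 4269 CPM (5 of 5 higher). Fibroblast markers spanned 137 to 140 against 71.9 to 461 CPM, with 2 of 10 called higher, and those of pericytes and smooth muscle 1509 to 1534 against 671 to 1002 CPM, with 4 of 10 called lower. Of 5 sex-linked genes, Xist and 4 on the Y chromosome, the 4 Y-linked ones were called higher in oxidative ECKO. The part of these in the values was not tested.

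mt-Nd6 was at 156, 175, 166, 157 and 155 CPM in the glycolytic and at 411, 370, 259, 250 and 211 CPM in the oxidative ECKO libraries. All oxidative libraries were above the glycolytic ones but ranged over a wide span, and the difference was 0.89 ± 0.12 (log2, SE, adjusted p = 6.6e-06). The nuclear genes with the largest calls were Cox5b, a complex IV subunit, and Ndufa4, both at -0.22, and Sdhc and Uqcrb, a complex III subunit, both at -0.20. Cox5b was at 208, 212, 189, 204 and 195 CPM in the glycolytic and at 190, 173, 171, 168 and 162 CPM in the oxidative ECKO libraries, overlapping in 1 library of each. Uqcrb was at 223, 214, 211, 203 and 218 CPM against 202, 192, 169, 195 and 176 CPM, without overlap, and its call was lost without oxidative ECKO library 3.

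The smallest differences were those of Ndufb5 and Ndufa5, both accessory subunits of complex I. Ndufa5 was at 58.2, 59.9, 58.9, 55.9 and 55.2 CPM in the glycolytic and at 62.9, 60.3, 50.2, 53.8 and 58.1 CPM in the oxidative ECKO libraries, fully overlapping. Ndufb5 was at 74.8, 69.1, 72.1, 70.2 and 66.5 CPM against 73.3, 76.3, 69.4, 71.7 and 66.8 CPM and overlapped as well. The count of nuclear genes called lower ranged from 4 to 13 when 1 library was left out, and moved by over 1.5 times without glycolytic ECKO library 2 or 3 or any 1 of the 5 oxidative ECKO libraries. It was 16 with libraries 4 and 5 alone and 4 with libraries 1, 2 and 3 alone, and the mitochondrial median was 0.39, with 11 genes called, and 0.90, with 13 called.

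Between genotypes in oxidative muscle, the mitochondrial genes fell together. All 13 were lower in Atf4 ECKO, with log2 values from -0.86 to -0.63 and a median of -0.70. Of the nuclear genes 4 were called higher and 19 lower, with a median of -0.10. Over all genes 14.6% were called higher and 17.4% lower, with a median of 0.02. The direction of the nuclear sum depended on the scaling. Its mean was 6878 CPM in oxidative wild type and 6411 CPM in oxidative ECKO, but 11051 and 11928 in deposited TPM. As a share of all counts it was 0.632 and 0.657%. Libraries were apart for all 13 mitochondrial genes and for 16 nuclear genes that were lower, against 12% of all genes, and for 2 nuclear genes that were higher, against 8.2%. This comparison shares the oxidative wild type libraries with the comparison of muscles in wild type, and the oxidative ECKO libraries with the comparison of muscles in ECKO, so these are not independent.

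mt-Nd6 went from the oxidative wild type values above to 411, 370, 259, 250 and 211 CPM in oxidative ECKO libraries, without overlap, and fell by 0.83 (log2, SE 0.12, adjusted p = 5.3e-06). mt-Nd3 was at 559, 479, 420, 428 and 377 CPM in oxidative ECKO, all below the wild type libraries, and fell by 0.63 (SE 0.083, adjusted p = 1e-06). mt-Atp8 had the largest fall, 0.86, and mt-Nd3 the smallest. The ribosomal mt-Rnr1 and mt-Rnr2 were also lower, at -0.88 and -0.67.

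Other measures differed between the same libraries. In oxidative ECKO libraries 1 to 5, the mitochondrial sum was 77801, 74313, 59772, 53596 and 49818 CPM. Y-linked RNA was at 56.6, 57.5, 28.2, 0.817 and 0.961% of that in wild type. Leukocyte markers summed to 101, 96.2, 90.6, 61.6 and 44.5 CPM, and 14 of 14 tested were called lower than in wild type. Libraries 1 and 2 were high in all of these and libraries 4 and 5 low. Fibroblast markers were at 71.9, 72.2, 241, 461 and 453 CPM and muscle fibre markers at 294, 311, 336, 395 and 411 CPM, which put libraries 4 and 5 high, and 10 of 21 fibre markers were called higher than in wild type. Markers of pericytes and smooth muscle were at 671 to 1002 CPM, above the 466 to 575 CPM of wild type, with 6 of 10 called higher. The red blood cell markers, 2502 to 4269 CPM, were below the wild type libraries, with 5 of 5 called lower. The part of sex and of these cells in the result was not tested. With libraries 4 and 5 alone all 13 mitochondrial genes were called lower, with a median of -0.99, and with libraries 1, 2 and 3 alone likewise, with a median of -0.54.

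In the nuclear set, complex IV, cytochrome c oxidase, hands electrons to oxygen. Its 6 listed genes were all called lower in oxidative ECKO by the edgeR test, with a median of -0.32. Cox7b was at 105, 109, 109, 106 and 103 CPM in oxidative wild type and at 82.3, 75.4, 75.3, 83.1 and 76.8 CPM in oxidative ECKO libraries. The groups were well apart, and it fell by 0.44 (log2, SE 0.052, adjusted p = 1.9e-07). Cox7b lies on the X chromosome, and sex and genotype are not separated in this comparison. Cox5a was at 174, 176, 176, 170 and 166 CPM against 135, 133, 123, 130 and 139 CPM, and fell by 0.38 (SE 0.053, adjusted p = 2.3e-06). Cox7c was at 127, 124, 132, 121 and 115 CPM against 98.2, 97.7, 91.5, 105 and 96.4 CPM, and fell by 0.34 (SE 0.055, adjusted p = 1.9e-05). None of these pairs of groups overlapped. Cox6c fell by 0.29, Cox5b by 0.27 and Cox4i1 by 0.12, the last losing its call without any of 6 libraries in turn. Cox6c, Cox5a and Cox4i1 overlap an antisense gene in the annotation, and Cox5b and Cox7c have near-identical copies with at most 0.0673% of their counts. The common fall was not seen in deposited TPM. From oxidative wild type to ECKO, TPM means were lower for Cox7b (220 to 206), Cox5a (409 to 390) and Cox5b (496 to 489). Those of Cox4i1 (891 to 1008) and Cox6c (531 to 564) were higher, and that of Cox7c was level (407 to 408).

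**Figure D4:**
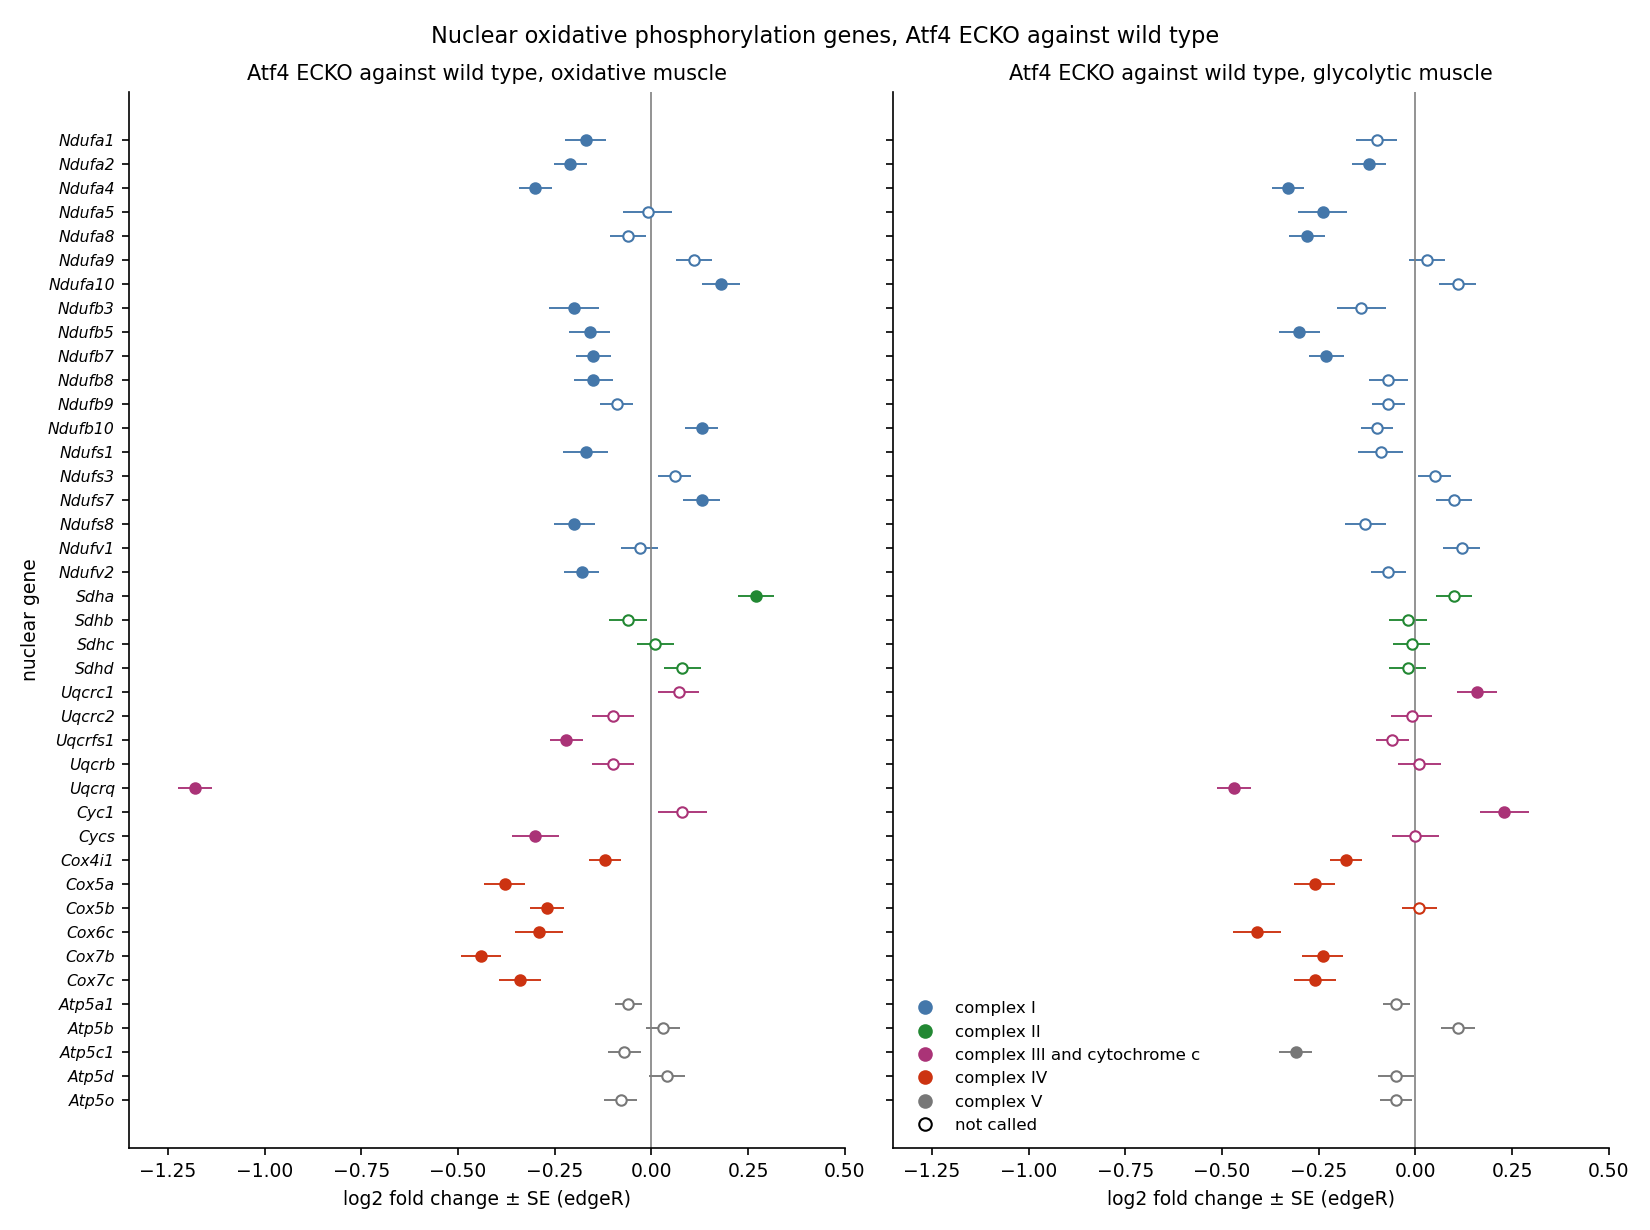
Log2 fold change with SE of the 41 nuclear genes between Atf4 ECKO and wild type in oxidative (left) and glycolytic muscle (right), coloured by complex, with open points for genes that were not called. All 6 complex IV genes are called lower on the left and 5 of 6 on the right, and Uqcrq is the lowest in both (-1.18 and -0.47).

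Uqcrq had the largest change of the 54 genes in this comparison. It was at 101, 98.5, 94.5, 97.8 and 88 CPM in the oxidative ECKO libraries against 216, 213, 226, 210 and 221 CPM in wild type. No library came near the other group, and Uqcrq fell by 1.18 (log2, SE 0.044, adjusted p = 1.6e-17), a 2.27-fold difference. Both leading transcripts were lower, at means of 51.3 and 37.4 CPM in ECKO. Of complex III and cytochrome c, Uqcrfs1, the Rieske iron-sulphur protein, fell by 0.22 and Cycs by 0.30 (adjusted p = 0.0004). Cycs was at 103, 104, 108, 97.9 and 103 CPM in oxidative ECKO libraries, all below wild type. With Gm10053 added, the Cycs value was -0.41.

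**Figure D5:**
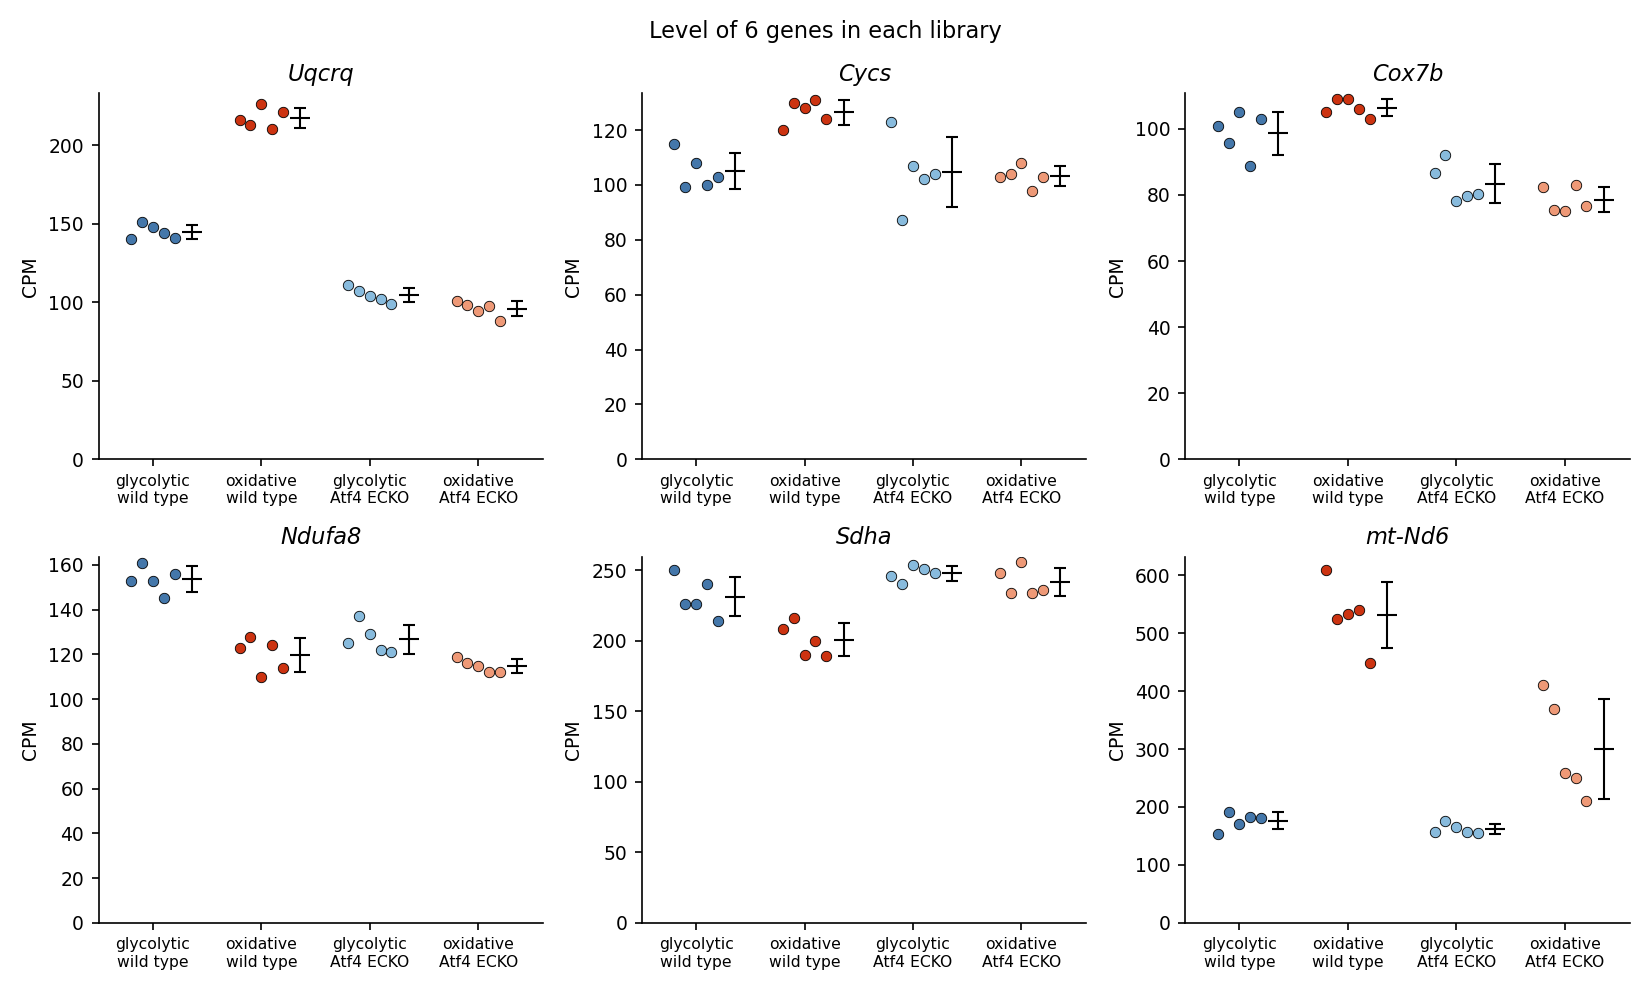
CPM of 6 genes in each of the 5 libraries of 4 groups (points), with mean and SD (black bars). Uqcrq is highest in oxidative wild type (210 to 226 CPM) and lowest in oxidative ECKO (88 to 101 CPM), and Sdha is lowest in oxidative wild type (189 to 216 CPM).

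Complex I moved in both directions in oxidative muscle, with 10 of 19 nuclear genes lower and 3 higher in ECKO. Ndufa4 fell by 0.30, from 250, 242, 250, 253 and 233 CPM to 210, 194, 185, 211 and 199 CPM, without overlap (adjusted p = 3.5e-06). In deposited TPM its means were 708 in oxidative wild type and 715 in oxidative ECKO. Ndufa2, Ndufb3 and Ndufs8 fell by 0.21, 0.20 and 0.20. Ndufa10 rose by 0.18, and Ndufb10 and Ndufs7 by 0.13 each. Ndufb10 was at 86, 86.3, 85.5, 85.4 and 89.6 CPM in oxidative ECKO libraries, all above wild type. Its call was lost without oxidative wild type library 4, when 2 nuclear genes in place of 4 were called higher, and that of Ndufs7 without any of 10 libraries in turn.

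In complex II, Sdha rose by 0.27 (log2, SE 0.047, adjusted p = 5.4e-05), from 208, 216, 190, 200 and 189 CPM in wild type to 248, 234, 256, 234 and 236 CPM in ECKO libraries, without overlap. Sdhc had one of the smallest differences in the set, at 88.1, 82.4, 80.2, 78.3 and 87.5 CPM in ECKO (log2 0.01 ± 0.048), with full overlap. Ndufa5 was the other, at -0.01 ± 0.064. Of complex V, the 5 listed genes were not called, with values from -0.08 to 0.04. This does not hold for complex V as a whole. Among the further subunits described below, several of complex V were called lower, such as Atp5g1 at -0.51, and none higher. When an offset for the length of the transcripts in use was added, 9 nuclear genes in place of 19 were called lower and 4 higher. With ECKO libraries 4 and 5 alone 1 nuclear gene was called higher and 20 lower, and with libraries 1, 2 and 3 alone 5 and 12.

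In glycolytic muscle the genotypes did not differ by the test in any mitochondrial gene. The 13 values ran from -0.21 (mt-Nd1) to 0.14 (mt-Nd4l), with a median of -0.10. Of the nuclear genes 2 were called higher and 13 lower, with a median of -0.07, where 13.9% of all genes were called higher and 15.1% lower. At an unadjusted p under 0.05, 1 mitochondrial gene was lower and 0 higher with edgeR. DESeq2 and limma-voom called 0, with 0 and 1 at an unadjusted p under 0.05. In a fit of the 2 glycolytic groups alone, 6 were called lower and 1 higher. Libraries were apart and lower for mt-Cytb, mt-Co1, mt-Co3 and mt-Atp6 and for 10 nuclear genes, against 11.9% of all genes, and apart and higher for 4 nuclear genes, against 10.6%. These groups share no library with the genotype comparison in oxidative muscle, but each is also in a comparison of muscles, and sex and genotype cannot be told apart in them.

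mt-Co1 was at 12554, 12620, 12218, 12660 and 11474 CPM in glycolytic wild type and at 11060, 10472, 10977, 11118 and 11192 CPM in glycolytic ECKO libraries, just apart (-0.17 ± 0.085, adjusted p = 0.15). mt-Nd6 was at 153 to 192 CPM in wild type and 155 to 175 CPM in ECKO, and overlapped (-0.12 ± 0.12). Of the markers of other cells, leukocyte markers were at 17 to 18 CPM in glycolytic ECKO, muscle fibre markers at 222 to 231 CPM, fibroblast markers at 137 to 140 CPM, those of pericytes and smooth muscle at 1509 to 1534 CPM and those of red blood cells at 2264 to 2487 CPM. Apart from the first and last, these sums were above glycolytic wild type. Of the 10 markers of pericytes and smooth muscle, however, 2 were called higher (Acta2 and Cnn1) and 1 lower (Pdgfrb), with a median of -0.02. Rgs5, another of them, was at 355 to 375 CPM in ECKO against 396 to 425 CPM in wild type. The part of these cells in the values was not tested.

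Uqcrq again fell the most among nuclear genes. It was at 111, 107, 104, 102 and 98.9 CPM in glycolytic ECKO libraries, all below the 140 to 151 CPM of wild type, and fell by 0.47 (log2, SE 0.044, adjusted p = 4.8e-09). Of complex IV 5 of 6 genes fell. Cox6c was at 156, 178, 185, 160 and 197 CPM in wild type and at 132, 140, 130, 123 and 132 CPM in ECKO, without overlap, and fell by 0.41 (SE 0.062, adjusted p = 9.1e-06). Cox5a and Cox7c fell by 0.26 each, Cox7b by 0.24 and Cox4i1 by 0.18. The exception was Cox5b, at 0.01 ± 0.045.

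Ndufa4 fell by 0.33 (SE 0.042, adjusted p = 1.1e-06), from 285, 301, 283, 293 and 297 CPM in glycolytic wild type to 222, 231, 244, 233 and 234 CPM in glycolytic ECKO, without overlap. Among the 41 listed nuclear genes, it was the only one called lower in all 4 comparisons of 2 groups. Atp5j2, one of the further subunits described below, was also called lower in all 4. Ndufb5 fell by 0.30, Ndufa8 by 0.28, Ndufa5 by 0.24, Ndufb7 by 0.23 and Ndufa2 by 0.12. Ndufb5 shares 530 bases with the antisense gene Mrpl47, whose counts equal 29.3% of its own. Atp5c1, the rotating central stalk of complex V, was at 212, 243, 243, 228 and 241 CPM in wild type and at 188, 184, 181, 194 and 198 CPM in ECKO, without overlap, and fell by 0.31 (SE 0.042, adjusted p = 3e-06).

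The 2 nuclear genes that rose in glycolytic ECKO were both of complex III. Cyc1, cytochrome c1, was at 167, 169, 158, 163 and 160 CPM in ECKO, above all wild type libraries, and rose by 0.23 (SE 0.063, adjusted p = 0.0079). Uqcrc1, a core subunit, rose by 0.16 (adjusted p = 0.022), a call lost without glycolytic ECKO library 3 or glycolytic wild type library 2 or 5. The count of 2 became 4 without glycolytic wild type library 1, 1 without glycolytic ECKO library 3 or glycolytic wild type library 2 or 5, and 6 in a fit of the 2 groups alone. Cycs and Uqcrb had the smallest differences. Cycs was at 123, 87.4, 107, 102 and 104 CPM in glycolytic ECKO and overlapped wild type (adjusted p = 0.99). Uqcrb was at 198, 215, 216, 201 and 232 CPM in wild type against 203 to 223 CPM in ECKO, with a difference of 0.01 ± 0.055. With the counts of Gm10053 added, Cycs was called higher, at 0.13 ± 0.045 (adjusted p = 0.03).

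The interaction tests whether the effect of genotype differed between the muscles. It was negative for all 13 mitochondrial genes, from -0.96 (mt-Nd4l) to -0.49 (mt-Co1) with a median of -0.60, and each was called. All genes gave 10.2% called higher and 12.5% lower, with a median of 0.01. Among nuclear genes 3 were called lower, Uqcrq at -0.71 ± 0.062 (adjusted p = 2.5e-09), Cycs at -0.29 ± 0.086 (adjusted p = 0.014; -0.54 ± 0.064 with Gm10053 added, adjusted p = 3.7e-07) and Cox5b at -0.28 ± 0.064 (adjusted p = 0.0016). Another 3 were called higher, Ndufa8 at 0.22, Ndufb10 at 0.23 and Atp5c1 at 0.23. The other 35 were not called. The count of higher calls was 5 without glycolytic ECKO library 3, and that of lower calls reached 5 when oxidative ECKO library 1 or oxidative wild type library 5 was left out. The smallest values were those of Atp5a1 and Ndufs3, a core complex I subunit, at -0.01 ± 0.049 and 0.01 ± 0.059. Ndufs3 was at 58.7 to 63.3, 56.5 to 60.4, 60.6 to 65.8 and 60.4 to 63.6 CPM in glycolytic wild type, oxidative wild type, glycolytic ECKO and oxidative ECKO libraries.

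Atp5a1, the catalytic-ring alpha subunit of complex V, was at 447 to 469 CPM in glycolytic wild type, 444 to 457 CPM in oxidative wild type, 432 to 449 CPM in glycolytic ECKO and 427 to 439 CPM in oxidative ECKO, and was called in no comparison. With an offset for transcript length, 9 nuclear genes were called higher in the interaction and 2 lower. With oxidative ECKO libraries 4 and 5 alone, 9 were called lower. The mitochondrial median was -0.86 with libraries 4 and 5 alone and -0.47 with libraries 1, 2 and 3 alone, with all 13 called in both. Markers of sex and of other cells were called in the interaction as well. Of 5 sex-linked genes 4 were higher, and of 14 leukocyte markers tested 8 were lower. Of 21 muscle fibre markers 5 were lower, and of 10 of pericytes and smooth muscle 5 were higher and 3 lower. The part of these in the values was not tested.

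Other genes of the pathway were read from lists by function. Their counts stand against 16.4% of all genes called higher and 15.9% lower between the wild type muscles, 14.6% and 17.4% in oxidative ECKO, and 13.9% and 15.1% in glycolytic ECKO. Of 39 further nuclear subunits, 15 fell and 24 were not called in the comparison of wild type muscles, 2 rose and 21 fell in oxidative ECKO, and 26 fell and 13 were not called in glycolytic ECKO, with medians of -0.11, -0.15 and -0.19. Atp5g1, for the proton-carrying ring of complex V, fell by 0.51 in oxidative ECKO, and Cox6b1 of complex IV fell by 0.32. In glycolytic ECKO Atp5h of complex V fell by 0.52. Of 46 assembly factors tested, 4 rose and 6 fell, 1 rose and 7 fell, and 8 rose and 6 fell in the same 3 comparisons. Tmem70, needed to assemble complex V, had means of 49 CPM (glycolytic) and 58.5 CPM (oxidative) in wild type, and of 90.8 and 47.3 CPM in the matching ECKO groups, and its interaction value was -1.19 ± 0.083 (adjusted p = 4.2e-11).

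Genes that copy and read mitochondrial DNA were mixed. Of 31 genes, 7 rose and 5 fell in oxidative wild type muscle, and 7 rose and 8 fell in oxidative ECKO, where 16.4% and 15.9%, and 14.6% and 17.4%, of all genes did so. Tfam, which packages and transcribes mitochondrial DNA, was at 17.5, 20.2, 21.2, 22.3 and 20.6 CPM in glycolytic and at 24.1, 25.5, 26.8, 24.6 and 27.1 CPM in oxidative wild type, without overlap (0.33 ± 0.075, adjusted p = 0.0013). In oxidative ECKO it was at 18.5 to 21.7 CPM (-0.35 ± 0.076, adjusted p = 0.00065). Tfb2m, a mitochondrial transcription factor, and Fastkd2, a mitochondrial RNA-binding protein, rose by 0.57 and 0.53 in oxidative wild type muscle and fell by 0.58 and 0.49 in oxidative ECKO. Polrmt, the mitochondrial RNA polymerase, had wild type means of 22.4 ± 2.08 CPM (SD, n = 5) for the glycolytic and 19.5 ± 2.28 CPM for the oxidative muscle. It was not called between them (adjusted p = 0.094), whereas in oxidative ECKO it rose by 0.27. Lrpprc, Polg, Supv3l1, Fastk, Fastkd1 and Top1mt also rose in oxidative ECKO. Those that fell in oxidative wild type muscle were Slirp, Supv3l1, Fastkd1, Fastkd3 and Hsd17b10. Values of the list ran from -0.63 to 0.63 between wild type muscles and from -0.58 to 0.68 in oxidative ECKO.

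The small lists that follow have the same background. Of 10 regulators of mitochondrial biogenesis, 1 rose in oxidative wild type muscle, Nrf1 by 0.20 (adjusted p = 0.034), and 10 of 10 were not called in oxidative ECKO. Of 13 genes of the citric acid cycle, 1 rose and 3 fell in oxidative wild type muscle and 1 rose and 4 fell in oxidative ECKO. Of 15 carriers and import genes, 5 rose and 2 fell, and 1 rose and 6 fell. Among them Vdac3, an outer membrane channel, rose by 0.40 in oxidative wild type muscle and fell by 0.64 in oxidative ECKO, and Timm23, the inner membrane import pore, rose by 0.37 and fell by 0.53. Medians of these lists lay between -0.10 and 0.09 in both comparisons, against 0 and 0.02 for all genes.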

How the data were processed

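For each library the authors deposited a transcript table that gives estimated counts, TPM and effective lengths. The submitters' processing notes name kallisto, DESeq2 and the human build GRCh38.p13; the identifiers are mouse, and 128643 of 129439 transcripts were found in GENCODE M21 (GRCm38). Whether their quantification used strand is stated in no source used here. The deposited estimated counts were summed per gene and rounded. The authors' TPM was summed per gene for levels between genes.

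All 20 libraries entered 1 fit of 4 group means in edgeR 4.0.16 (R 4.3.3) with TMM factors and filterByExpr, tested by quasi-likelihood, with Benjamini-Hochberg adjustment over 13971 genes. SE is the size of the log2 value over the square root of F and is approximate. On data simulated and fitted for the wild type groups alone, with 12966 genes, 100 of 100 changes of 2-fold and 75 of 100 of 1.3-fold were recovered. The changed genes were drawn from the more abundant ones. These rates are thus not those of the fit of all 20 libraries, and the rate of false calls is not given here.

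Members, lists and tests were chosen with earlier results of these data known. Values in all libraries are given for the mitochondrial genes with the largest and smallest wild type change, for up to 4 nuclear genes with the largest called and 2 with the smallest change per comparison, and for others picked after their values were seen (mt-Co1, Sdha, Tfam). Of other lists, up to 4 genes with the smallest adjusted p per comparison could be named. Polrmt, Atp5j2 and other called genes that copy and read mitochondrial DNA were picked beside them. Alternatives were RLE factors, TMM factors without mitochondrial RNA, no filter, DESeq2 1.42.0, voom of limma 3.58.1, a transcript length offset, compared groups alone, a replicate block, parts of the oxidative ECKO libraries and leaving out each library. 1 gene, CT010467.1, took 8.91 to 12.2% of counts. Copies of mitochondrial genes were sought by alignment. Transcripts without a gene match held at most 0.221% of a library.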

Additional observations from a re-analysis of the deposited data

Results flagged for a closer look

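For 19 of the 54 genes the effect of genotype differed between the muscles by the interaction test in edgeR. These were 13 of 13 mitochondrial and 6 of 41 nuclear genes (14.6%), where 22.7% of all genes tested were called. The difference, oxidative minus glycolytic on the log2 scale, was -0.57 for mt-Nd1, -0.72 for mt-Nd2, -0.57 for mt-Nd3, -0.68 for mt-Nd4, -0.96 for mt-Nd4l, -0.63 for mt-Nd5 and -0.70 for mt-Nd6. It was -0.56 for mt-Cytb, -0.49 for mt-Co1, -0.60 for mt-Co2, -0.53 for mt-Co3, -0.53 for mt-Atp6 and -0.79 for mt-Atp8. Among nuclear genes it was -0.71 for Uqcrq, -0.29 for Cycs, -0.28 for Cox5b, 0.22 for Ndufa8, 0.23 for Ndufb10 and 0.23 for Atp5c1.

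In 7 of 96 groups of 5 libraries, 1 library stood apart from the other 4 by the Dixon criterion, where chance alone gives about 1 in 20. Atp5a1 was at 457 CPM in oxidative wild type library 2 against 444 to 447 CPM in the others, at 432 CPM in glycolytic ECKO library 1 against 445 to 449 CPM, and at 439 CPM in oxidative ECKO library 2 against 427 to 429 CPM. Cox6c was at 139 CPM in oxidative ECKO library 4 against 118 to 123 CPM. Ndufb10 was at 74.8 CPM in oxidative wild type library 4 against 79.5 to 80.7 CPM, and at 89.6 CPM in oxidative ECKO library 5 against 85.4 to 86.3 CPM. Ndufs3 was at 58.7 CPM in glycolytic wild type library 1 against 62.1 to 63.3 CPM.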

How the results depend on the processing

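None of the 120 calls on single genes reversed under the alternatives run, and 104 held with any 1 library left out. RLE factors kept 118 calls, scaling without mitochondrial RNA 117, no filter 110, the length offset 99, DESeq2 119 and limma-voom 119. Same-numbered libraries did not deviate together (correlations from -0.0662 to 0.0996, none over 0.1, and 7 of 20 libraries closest to their own number), and a replicate block kept 118 of 120 calls and called 1 mitochondrial gene lower in glycolytic ECKO in place of 0. Nuclear genes called lower between muscles in ECKO, 8 in the reported fit, were 5 with scaling without mitochondrial RNA, 4 without a filter, 3 with the length offset, 4 with the compared groups alone, 16 with oxidative ECKO libraries 4 and 5 and 4 with libraries 1, 2 and 3. In oxidative ECKO, the 4 nuclear genes called higher were 2 without a filter and 1 with libraries 4 and 5, and the 19 called lower were 9 with the length offset and 12 with libraries 1, 2 and 3. In glycolytic ECKO, the 2 nuclear genes called higher were 1 without a filter, 1 with the length offset, 6 with the compared groups alone, 4 with oxidative ECKO libraries 1, 2 and 3, and 4 with limma-voom. There the mitochondrial calls, 0 in both directions, were 2 lower without a filter, 1 higher and 6 lower with the compared groups alone, 3 lower with oxidative ECKO libraries 4 and 5 and 2 lower with libraries 1, 2 and 3. In the interaction, the 3 nuclear genes called higher were 9 with the length offset, and the 3 called lower were 9 with oxidative ECKO libraries 4 and 5. Leaving out 1 library gave 4 to 13 nuclear genes lower between muscles in ECKO, 2 to 5 higher in oxidative ECKO, 1 to 4 higher in glycolytic ECKO, 3 to 5 in each direction in the interaction, and 0 to 1 mitochondrial genes lower in glycolytic ECKO, the last without glycolytic wild type library 5 or oxidative ECKO library 1 or 5. The cause of these moves was not tested. From TPM the ratio of mitochondrial to nuclear genes was 5.54, 13.6, 5.63 and 9.55 in glycolytic wild type, oxidative wild type, glycolytic ECKO and oxidative ECKO, and a copy of a mitochondrial gene found by alignment left it as reported.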
